A study of Sus scrofa with 40 samples.

Results

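The extracellular matrix genes described here are the collagen chains, laminin chains, matrix metalloproteinases (MMP), tissue inhibitors of metalloproteinases (TIMP), ADAMTS proteases, fibulins, fibrillins and lysyl oxidases, together with FN1, LUM, DCN, BGN, SPARC, ELN, FMOD and VCAN. These genes, and the lists of related genes used below, were chosen with earlier results of these data known. Their shares, set beside those of all probe sets, are therefore descriptions only. Probe sets were then taken by gene symbol, where the annotation of the porcine array gave a single symbol. This gave 44 of the 6765 genes with a symbol, measured by 85 of the 23999 probe sets that are not controls. COL1A1, COL4A1, COL6A1, LAMA4, FBLN5, ELN and FMOD had no probe set chosen by this rule and were not analysed here.

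RNA levels were measured on 40 one-colour Affymetrix arrays, 20 of liver and 20 of backfat (its middle layer, sampled over rib 10), from Yorkshire gilts that were 6 months old and prepubertal. They belonged to a line of low or a line of high residual feed intake (RFI), which is the part of feed intake not accounted for by growth and maintenance, so low RFI pigs are the feed-efficient ones. In each line, pigs either ate ad libitum or received 80% of maintenance feed for 8 days, which gave 8 groups of 5 arrays, 4 in each tissue. Per 39 of the 40 labels, pigs of every group were heterozygous for a variant of MC4R, a receptor that regulates appetite. The question the design puts to the matrix genes is whether an acute energy deficit, the RFI line, or the combination of both changed their RNA levels in each tissue. The labels do not say which liver and backfat arrays came from the same pig.

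Collagens form the fibrils, networks and basement membranes that give a tissue its tensile strength, and laminins, fibronectin, fibrillin and proteoglycans organise cells and growth factors on that scaffold. Lysyl oxidases cross-link collagen and elastin, metalloproteinases and ADAMTS proteases cut matrix proteins, and TIMPs inhibit these proteases. In adipose tissue the matrix surrounds every adipocyte and is remodelled as fat cells grow or shrink, whereas healthy liver holds a sparse matrix made largely by stellate and portal cells.

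On every array the trimmed mean intensity lay between 500.09 and 500.15, and array medians ranged from 127 to 191. All 8 adipocyte markers on the array were above the filter in backfat and all 15 hepatocyte markers in liver, against 5 of 15 hepatocyte markers in backfat and 2 of 8 adipocyte markers in liver. The 3' to 5' ratio of the actin control, on the log2 scale, separated arrays numbered 1 and 2 from numbers 3 to 5, at 2.27 against 1.56 in backfat and 2.25 against 1.32 in liver (exact permutation p = 0.0001 in each tissue, the minimum possible, and 0.0033 after adjustment over 66 tests). All 8 groups hold arrays of both sets. The same ratio for the GAPDH control was 1.88 ± 0.521 (SD, n = 10) in restricted and 1.19 ± 0.365 in ad libitum backfat (exact permutation adjusted p = 0.0485), and the array median was 7.50 ± 0.061 and 7.39 ± 0.065 on the log2 scale (exact permutation adjusted p = 0.0295). The mean of 11 endothelial markers was lower on numbers 1 and 2 than on numbers 3 to 5, at 9.46 against 9.95 in backfat and 8.63 against 9.06 in liver (exact permutation adjusted p = 0.0165 and 0.0044). The backfat array of low RFI restricted number 1 had the highest mean of the skeletal muscle markers, 12.7 against 4.84 to 11.7 on the other 19 arrays, and number 5 of that group had a hepatocyte marker mean of 12.2 against 4.44 to 8.17 on the others. In bulk tissue, fewer cells of a type and less RNA per cell cannot be told apart.

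Values are log2 intensities, and a probe set was tested in a tissue if 5 or more of the 20 arrays gave it a value above that array's 40th percentile. In backfat 47 matrix probe sets of 33 genes passed, and in liver 41 probe sets of 31 genes passed. The 9 genes that passed in neither tissue were COL7A1, COL10A1, COL11A1 and COL17A1, the metalloproteinases MMP1, MMP9, MMP13 and MMP20, and ADAMTS20. MMP3 and MMP7 passed in liver but not in backfat, and VCAN, TIMP4, COL8A1 and ADAMTS6 passed in backfat but not in liver. Adjusted p-values below come from limma, with the Benjamini-Hochberg adjustment taken over every probe set of the comparison and a threshold of 0.05. Counts at an unadjusted p under 0.05 are given without the share of all probe sets at that level. Those counts therefore have no background to be set against. The labels number the arrays of a group without saying whether they came from separate animals, so p-values measure the spread between these samples.

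Most matrix genes had more RNA signal in backfat than in liver. Of the 37 matrix probe sets that passed the filter in both tissues, 36 differed (97.3%, against 78.9% of the 14001 probe sets that passed in both), with 33 higher in backfat (89.2%, against 51.4%) and 3 lower (8.11%, against 27.5%). The median difference, backfat minus liver, was 2.55 on the log2 scale for these matrix probe sets and 0.25 for all. With quantile normalization these medians were 2.45 and 0.09, and the counts were the same.

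LUM differed by 6.53 (SE 0.18) and COL15A1 by 6.48 (SE 0.11), but in liver they exceeded the percentile on 6 and 7 of 20 arrays, so the size of these differences rests on liver values that were mostly below it. LUM encodes lumican, a small leucine-rich proteoglycan that binds collagen fibrils, and COL15A1 encodes a collagen chain of basement membrane zones. COL5A3, a chain of the type V collagen that initiates fibrils, differed by 5.21 (SE 0.13). It exceeded the percentile on 9 of 20 liver arrays, so the size of its difference has the same limit. The laminin chain gene LAMC1 differed by 3.75 (SE 0.08) and 3.60 (SE 0.14) at its probe sets that passed in both tissues. FN1, fibronectin, which hepatocytes secrete into plasma, was higher in liver, with backfat minus liver at -1.48 (SE 0.07) and -1.01 (SE 0.16). FBLN1, a fibulin that binds fibronectin and elastic fibres, was the other gene higher in liver, at -1.92 (SE 0.11). COL2A1 did not pass the test, at 0.00 (SE 0.18).

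The other 14 of the 51 matrix probe sets passed the filter in 1 tissue only, 10 in backfat and 4 in liver, and no size is given for their differences. Those of liver were MMP7 (matrilysin, an epithelial metalloproteinase), MMP3, and a further probe set each of FN1 and COL5A3.

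**Figure D1:**
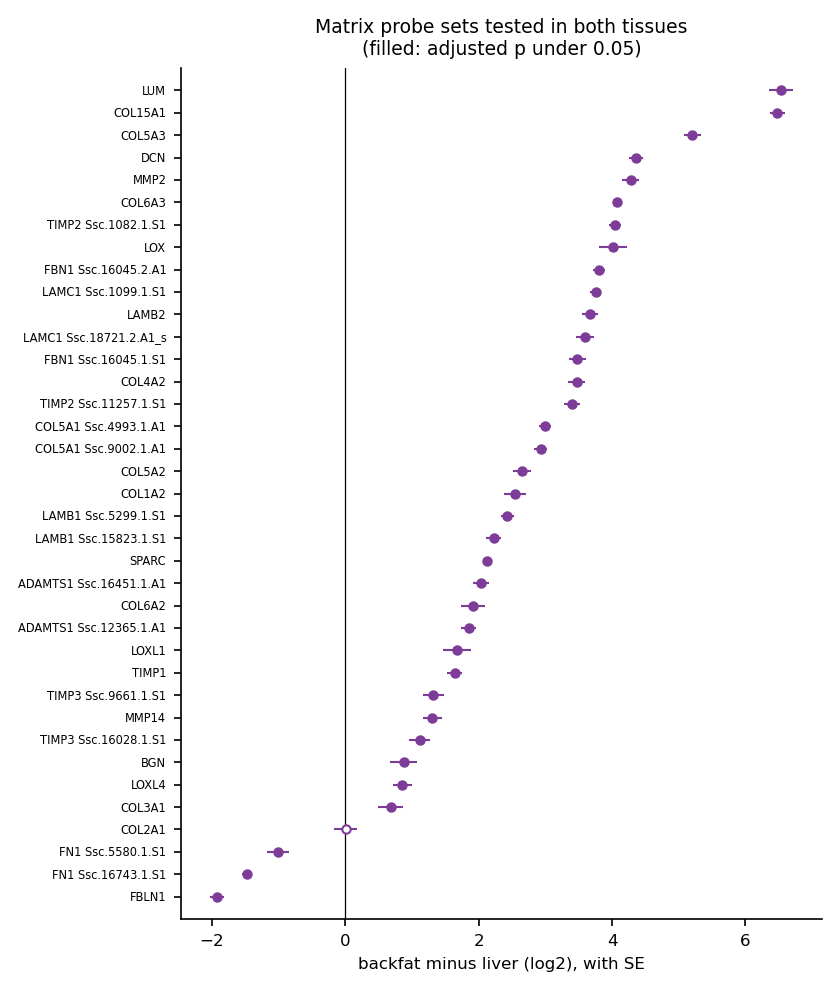
Difference in log2 intensity between backfat and liver (horizontal axis, backfat minus liver) for the 37 matrix probe sets tested in both tissues, 1 row each, with the standard error from limma as a horizontal line. Filled points passed the adjusted threshold of 0.05: 33 lie to the right of 0 and 3 to the left, from LUM at 6.53 to FBLN1 at -1.92.

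In backfat, feed restriction changed matrix genes in both directions: fibril-forming collagens of type V, COL15A1 and LUM fell, while MMP2, MMP14, TIMP2 and LOX rose. Of the 47 matrix probe sets tested, 15 passed the threshold (31.9%, against 25.8% of all 15498 probe sets tested). The 7 that rose made up 14.9% of the matrix probe sets, against a background of 15.1%, and the 8 that fell made up 17%, against 10.7%. The median diet effect, restricted minus ad libitum over both lines, was 0.04 for the matrix probe sets and 0.08 for all probe sets. With quantile normalization these medians were -0.02 and 0.02, with 8 matrix probe sets higher and 7 lower. The share of matrix probe sets that rose was close to the background. Of the 15 called probe sets, 13 exceeded the percentile on all 20 arrays.

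**Figure D2:**
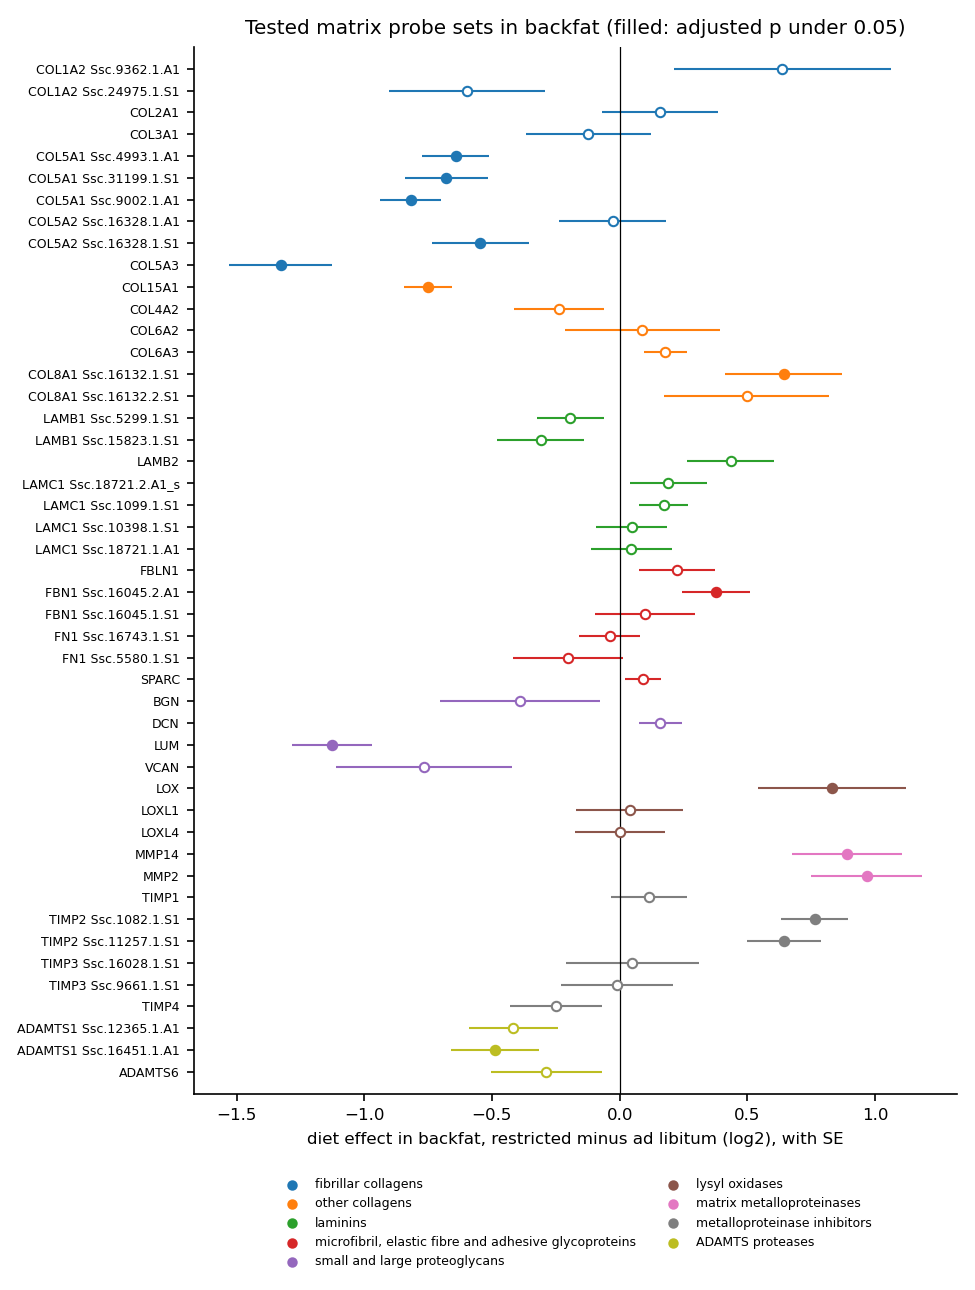
Diet effect in backfat (horizontal axis, restricted minus ad libitum, log2) of the 47 tested matrix probe sets, 1 row each, grouped by role, with the standard error from limma as a horizontal line. Filled points passed the adjusted threshold: 5 of 10 fibrillar collagen probe sets lie to the left, down to COL5A3 at -1.33, and both metalloproteinases lie to the right at 0.97 and 0.89.

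Among the fibrillar collagens, 5 of 10 tested probe sets fell under restriction (50%, against 10.7% of all probe sets) and none rose (against 15.1%), with a median of -0.57. They are probe sets of 3 genes, since 3 of the 5 belong to COL5A1. COL5A3 showed the largest fall. Its log2 intensities in low RFI pigs, in the order of array numbers 1 to 5, were 11.88, 11.52, 12.36, 12.51 and 12.17 ad libitum and 9.80, 10.63, 10.72, 10.83 and 11.41 under restriction. The high RFI values were 12.33, 12.06, 12.11, 12.42 and 13.17 ad libitum and 10.37, 10.91, 11.72, 11.64 and 11.24 under restriction. Within each line, every restricted array was below every ad libitum array, and across the lines the highest restricted arrays, of the high RFI line, overlapped the lowest ad libitum array, of the low RFI line. The diet effect was -1.33 (SE 0.20, adjusted p = 9.90e-05), a 2.51-fold fall. It was -1.52 among numbers 1 and 2 and -1.20 among numbers 3 to 5.

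COL5A1, which encodes the alpha 1 chain of type V collagen, fell at all 3 of its tested probe sets. At the probe set Ssc.9002.1.A1_at, called Ssc.9002 below, the low RFI values were 11.72, 11.52, 11.64, 11.59 and 11.79 ad libitum and 11.63, 10.98, 10.49, 10.74 and 10.76 under restriction. Those of the high RFI line were 11.59, 11.94, 11.25, 11.90 and 11.96 ad libitum and 10.77, 10.70, 10.83, 11.08 and 10.75 under restriction. Within the high RFI line the diets did not overlap, and in the low RFI line restricted array 1, at the level of the ad libitum arrays, was the only one that did. The effect was -0.82 (SE 0.12, adjusted p = 7.25e-05). The brightest COL5A1 probe set, Ssc.4993, fell by 0.64 (SE 0.13, adjusted p = 0.0014), and Ssc.31199 fell by 0.68 (SE 0.16, adjusted p = 0.00444). At Ssc.4993 the effect was -0.31 among numbers 1 and 2 and -0.86 among numbers 3 to 5.

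COL5A2, the remaining type V chain, fell at its brighter probe set by 0.55 (SE 0.19, adjusted p = 0.038), with restricted arrays from 8.09 to 9.85 (median 8.83) and ad libitum arrays from 8.84 to 9.98 (median 9.50). The ranges overlapped, and the effect was -0.77 in low and -0.32 in high RFI pigs, neither past the threshold within its line. With the 3' to 5' control ratios as covariates the COL5A2 effect was -0.13 (adjusted p = 0.712). Its dimmer probe set, above the percentile on 6 arrays, had an effect of -0.03. COL3A1, which lies next to COL5A2 among the coding genes of the RefSeq annotation of the Sscrofa11.1 assembly and encodes type III collagen, had an effect of -0.12 (SE 0.24, adjusted p = 0.755).

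COL1A2, a chain of type I collagen, did not pass the test, and its probe sets had effects of opposite sign. The brighter one had an effect of -0.60 (SE 0.31, adjusted p = 0.158) and the dimmer one 0.64 (SE 0.43, adjusted p = 0.289). On the brighter probe set low RFI restricted array 1 stood at 13.49, against 10.68 to 11.41 on the other 4 arrays of its group. Without that array the effect was -0.83 (SE 0.24, adjusted p = 0.0133), past the threshold. COL2A1, the cartilage collagen, had an effect of 0.16 (SE 0.23).

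Among the other collagens, COL15A1 fell and COL8A1 rose at 1 of its 2 tested probe sets. COL15A1 values in low RFI pigs were 13.11, 13.02, 13.04, 13.13 and 13.35 ad libitum and 12.78, 12.61, 12.01, 12.39 and 12.13 under restriction. Arrays of high RFI pigs gave 13.14, 13.24, 12.91, 13.19 and 13.02 ad libitum and 12.34, 12.29, 12.69, 12.28 and 12.12 under restriction. Every restricted array was below every ad libitum array, and COL15A1 was the only matrix probe set in backfat whose diet groups did not overlap (2.13% of the 47 in the lower direction, against 1.01% of all probe sets, and 0 in the higher direction, against 0.658%). The effect was -0.75 (SE 0.10, adjusted p = 1.55e-05), a 1.68-fold fall, and -0.62 among numbers 1 and 2 and -0.83 among numbers 3 to 5.

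COL8A1, a short-chain network collagen of vessel walls, rose at Ssc.16132.1.S1 by 0.64 (SE 0.23, adjusted p = 0.0446). That probe set exceeded the percentile on 7 of 20 arrays, 5 of them restricted, so it passed the filter through the group where it was higher. Its brighter probe set had an effect of 0.50 (SE 0.32, adjusted p = 0.273). COL4A2, a basement membrane collagen, had an effect of -0.24 (SE 0.18, adjusted p = 0.34). The type VI collagen chains, whose microfilaments surround adipocytes, had effects of 0.18 (SE 0.08, adjusted p = 0.125) for COL6A3 and 0.09 (SE 0.30, adjusted p = 0.863) for COL6A2. On COL6A3 the restricted arrays ranged from 13.42 to 14.16 (median 13.62) and the ad libitum arrays from 13.28 to 13.72 (median 13.48), and these ranges overlapped. With quantile normalization the COL6A3 effect was 0.28 (adjusted p = 0.012), past the threshold.

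None of the 7 laminin probe sets passed the test in backfat. The laminin beta chain gene LAMB2 came nearest, with an effect of 0.43 (SE 0.17, adjusted p = 0.066). LAMB1 had an effect of -0.19 (SE 0.13, adjusted p = 0.305) and LAMC1, the gamma chain shared by most laminins, 0.17 (SE 0.10, adjusted p = 0.196). The second LAMB1 probe set had an effect of -0.31, and the other 3 LAMC1 probe sets had effects between 0.05 and 0.19. With quantile normalization the LAMC1 effect at Ssc.1099.1.S1 was 0.32 (adjusted p = 0.0318), past the threshold.

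Among the adhesive and microfibril glycoproteins, FBN1 rose at 1 of 2 probe sets and the rest did not pass. FBN1 encodes fibrillin, the main protein of elastic microfibrils. At its brighter probe set the restricted arrays ranged from 12.66 to 14.15 (median 12.89) and the ad libitum arrays from 12.34 to 13.19 (median 12.61), with an effect of 0.38 (SE 0.13, adjusted p = 0.0423). The diets overlapped, and the highest value belonged to low RFI restricted array 1, without which the effect was 0.27 (SE 0.10, adjusted p = 0.0468). The other FBN1 probe set had an effect of 0.10 (SE 0.20, adjusted p = 0.752). FN1 had effects of -0.04 (SE 0.12) and -0.20 (SE 0.22), and FBLN1 0.23 (SE 0.15). SPARC, a matricellular protein that binds collagen, had an effect of 0.09 (SE 0.07), with all 20 arrays between 14.21 and 14.83.

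Among the proteoglycans, LUM fell and DCN, BGN and VCAN did not pass. LUM values in low RFI pigs were 13.54, 13.55, 13.18, 13.43 and 13.14 ad libitum and 13.00, 12.49, 11.39, 11.81 and 12.18 under restriction. High RFI pigs had values of 13.46, 13.57, 13.21, 13.17 and 13.00 ad libitum and 12.55, 12.00, 12.17, 11.83 and 12.55 under restriction. The diets did not overlap within either line, and across lines low RFI restricted array 1 met the lowest ad libitum array. The effect was -1.13 (SE 0.16, adjusted p = 3.84e-05), a 2.18-fold fall, and -1.02 among numbers 1 and 2 and -1.20 among numbers 3 to 5.

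DCN, which encodes decorin and lies next to LUM in the same annotation, had an effect of 0.16 (SE 0.09, adjusted p = 0.18), with restricted arrays from 13.87 to 14.60 (median 14.18) and ad libitum arrays from 13.72 to 14.22 (median 14.03). Whether the LUM and DCN effects differ was not tested. BGN, biglycan, had an effect of -0.39 (SE 0.31, adjusted p = 0.386). VCAN, versican, a large hyaluronan-binding proteoglycan, had an effect of -0.77 (SE 0.34, adjusted p = 0.108), but low RFI restricted array 1 stood at 9.90 and the other 9 restricted arrays were at 8.30 or below. Without that array the VCAN effect was -1.05 (SE 0.25, adjusted p = 0.00468), past the threshold.

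LOX, the lysyl oxidase that cross-links collagen and elastin, rose under restriction. Its values in low RFI pigs were 11.56, 11.21, 11.05, 10.45 and 10.41 ad libitum and 14.27, 11.79, 10.89, 11.80 and 11.20 under restriction. The high RFI values were 11.21, 11.27, 10.98, 11.16 and 11.72 ad libitum and 11.79, 11.93, 11.64, 11.90 and 12.14 under restriction. Low RFI restricted array 1 was far above every other array, and both lines had restricted arrays within the ad libitum range. The effect was 0.83 (SE 0.29, adjusted p = 0.0398), and without that array it was 0.55 (SE 0.16, adjusted p = 0.0138). LOXL1 and LOXL4, related oxidases, had effects of 0.04 (SE 0.21) and 0.00 (SE 0.18).

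Both metalloproteinases tested in backfat rose. MMP2, a gelatinase that cuts denatured collagen and basement membrane collagen, is secreted as a proenzyme that the membrane-bound MMP14 activates at the cell surface with TIMP2 as the adaptor. MMP2 values in low RFI pigs were 12.10, 10.79, 12.58, 11.89 and 12.45 ad libitum and 12.44, 12.18, 13.39, 12.98 and 13.39 under restriction. Arrays of high RFI pigs gave 11.17, 11.69, 12.38, 12.03 and 12.09 ad libitum and 12.23, 13.15, 13.06, 12.84 and 13.20 under restriction. Restricted arrays numbered 1 or 2 were the lowest of their group in both lines, and the ranges of the diets overlapped. The effect was 0.97 (SE 0.22, adjusted p = 0.00288), a 1.96-fold rise, and 1.06 among numbers 1 and 2 and 0.90 among numbers 3 to 5.

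MMP14 values in low RFI pigs were 8.53, 7.94, 9.31, 8.63 and 8.87 ad libitum and 8.81, 8.83, 10.10, 9.63 and 10.34 under restriction. High RFI pigs had values of 8.48, 8.15, 9.29, 8.75 and 8.80 ad libitum and 9.19, 10.18, 9.43, 9.22 and 9.92 under restriction. The diets overlapped, with ad libitum arrays numbered 3 the highest of their group in each line. The effect was 0.89 (SE 0.22, adjusted p = 0.00469), and 0.98 among numbers 1 and 2 and 0.83 among numbers 3 to 5. With the 3' to 5' control ratios as covariates it was 0.60 (adjusted p = 0.0511), and that of MMP2 was 0.63 (adjusted p = 0.00592).

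TIMP2 rose at both of its probe sets, while TIMP1, TIMP3 and TIMP4 did not pass. At the brighter TIMP2 probe set, Ssc.1082, the low RFI values were 11.99, 11.33, 12.45, 11.87 and 12.35 ad libitum and 13.40, 12.86, 12.87, 12.56 and 12.51 under restriction. The high RFI values were 11.47, 11.84, 11.75, 11.81 and 12.05 ad libitum and 12.36, 12.58, 12.45, 12.28 and 12.68 under restriction. Within each line all 5 restricted arrays were above all 5 ad libitum arrays. The effect was 0.76 (SE 0.13, adjusted p = 0.000289), a 1.7-fold rise, and 1.14 among numbers 1 and 2 and 0.51 among numbers 3 to 5. The other probe set, Ssc.11257, rose by 0.64 (SE 0.15, adjusted p = 0.00295).

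TIMP1 had an effect of 0.11 (SE 0.15, adjusted p = 0.616), TIMP4 -0.25 (SE 0.18, adjusted p = 0.333), and the TIMP3 probe sets 0.05 (SE 0.26) and -0.01 (SE 0.22). ADAMTS1, a protease that cuts versican and aggrecan, fell at Ssc.16451 by 0.49 (SE 0.17, adjusted p = 0.0415), while its brighter probe set had an effect of -0.42 (SE 0.17, adjusted p = 0.0831). At Ssc.16451 the restricted arrays ranged from 9.44 to 11.06 (median 10.43) and the ad libitum arrays from 10.34 to 11.33 (median 10.88), so the diets overlapped. ADAMTS6 had an effect of -0.29 (SE 0.22).

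**Figure D3:**
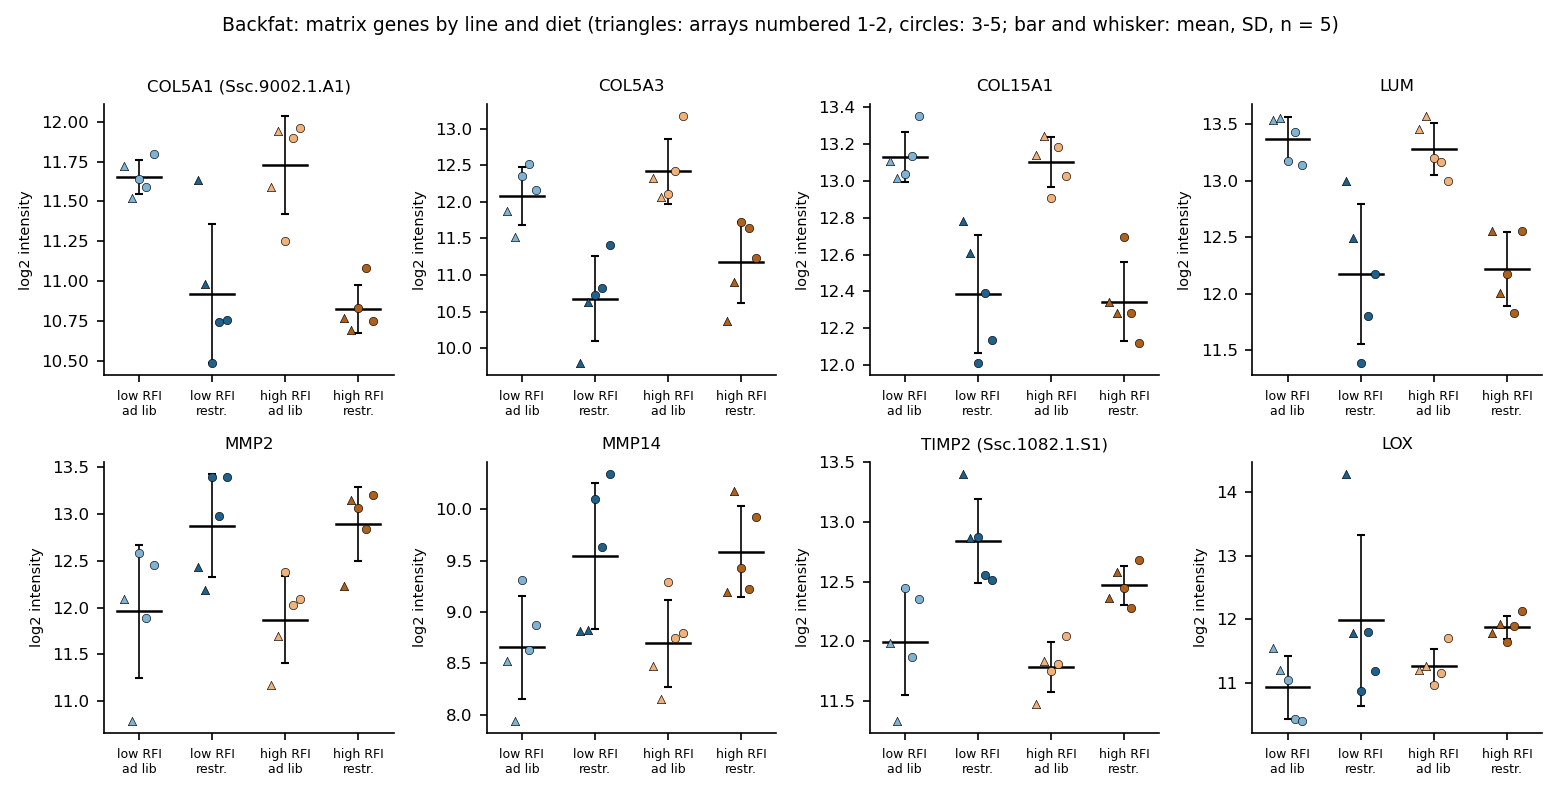
Log2 intensity in backfat (vertical axes) of 8 matrix probe sets by line and diet, with 1 point per array, triangles for arrays numbered 1 and 2, circles for numbers 3 to 5, and the mean and SD of 5 arrays as bar and whiskers. COL15A1 shows no overlap between the diets, TIMP2 no overlap within either line, and LOX 1 array at 14.27 above all others.

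The diet effect in backfat was also estimated in each line. The lines hold separate arrays, but both effects come from the same fit with 1 estimate of spread per probe set. Calls shared by the lines are therefore not independent. In low RFI pigs 7 matrix probe sets passed (14.9%, against 9.2% of all probe sets), with 2 higher (background 4.37%) and 5 lower (background 4.83%). In high RFI pigs 7 passed (14.9%, against 9.02%), with 2 higher (background 4.47%) and 5 lower (background 4.55%). The 5 that fell were the same in both lines: COL15A1, LUM, COL5A3 and the COL5A1 probe sets Ssc.4993 and Ssc.9002. TIMP2 rose at Ssc.1082 in both lines, by 0.84 and 0.69. The sign of the effect was the same in both lines for 37 of the 47 probe sets.

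All 15 calls kept their sign in each set of arrays, with 4 past the threshold among numbers 1 and 2 (COL15A1, LUM, COL5A3 and TIMP2 at Ssc.1082) and 13 among numbers 3 to 5. With the control ratios as covariates 12 of the 15 remained past the threshold (all but COL5A2, COL8A1 and MMP14). With the skeletal muscle marker mean as a covariate 13 remained (all but ADAMTS1 and FBN1). Without low RFI restricted arrays 1 and 5 also 13 remained (all but COL8A1 and FBN1). The marker means of the cells that make matrix did not move with diet past the test in backfat, but single markers did. The mean of 6 fibroblast markers was 10.2 ± 0.395 (SD, n = 10, range 9.67 to 10.9) under restriction and 10.4 ± 0.311 (9.95 to 10.9) ad libitum (exact permutation adjusted p = 0.561). That of 6 stellate and mural cell markers was 10.7 ± 0.489 and 10.6 ± 0.541 (exact permutation adjusted p = 0.816). Of 5 fibroblast markers tested in limma, 1 rose (20%, against 15.1% of all probe sets) and 2 fell (40%, against 10.7%). Of 6 stellate and mural markers, none rose and 1 fell (16.7%). Each marker gene counts by 1 probe set, whereas the background shares count every probe set tested. The mean of 11 endothelial markers was 9.92 ± 0.395 and 9.59 ± 0.274 (exact permutation p = 0.0467, adjusted p = 0.22), and its part in the diet effects was not tested.

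The calls with adjusted p between 0.038 and 0.0446 (ADAMTS1, COL5A2, COL8A1, FBN1 and LOX) were each lost on leaving out any 1 of 11 to 13 of the 20 arrays, at adjusted p up to 0.0885, without a change of sign.

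Genes that act on or with the matrix were described from lists that do not overlap the 44 genes. Each listed gene counts by 1 probe set, whereas the background shares count every probe set tested. Among 11 tested genes of collagen processing, 2 rose (18.2%, against 15.1% of all probe sets) and 1 fell (9.09%, against 10.7%), shares close to the background, with a median of -0.12 against 0.08 for all probe sets. PCOLCE2, which enhances procollagen cleavage, rose by 0.69 (SE 0.14, adjusted p = 0.000916), and BMP1, the protease that removes the procollagen C-propeptide, fell by 0.74 (SE 0.19, adjusted p = 0.00765). Among 24 other matrix genes, 7 rose (29.2%, against 15.1%) and 1 fell (4.17%, against 10.7%), with a median of 0.15. The smallest adjusted p-values were those of THBS2, a matricellular thrombospondin, at 0.77 (SE 0.12, adjusted p = 9.73e-05), and of CILP, a cartilage matrix protein, at 1.43 (SE 0.22, adjusted p = 0.000123).

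Of 6 matrix receptors tested, 3 rose (50%, against 15.1% of all probe sets) and none fell (against 10.7%), with a median of 0.31. The integrin subunit gene ITGB5 rose by 0.71 (SE 0.12, adjusted p = 0.000194) and ITGB3 by 0.65 (SE 0.12, adjusted p = 0.000451). Among 12 genes of transforming growth factor beta signalling, which drives matrix synthesis in many tissues, 4 rose (33.3%, against 15.1%) and none fell, with a median of 0.16. The receptor gene TGFBR1 rose by 0.52 (SE 0.09, adjusted p = 0.000467) and the transcriptional repressor gene TGIF1 by 0.55 (SE 0.12, adjusted p = 0.00272). Among 21 other proteases and inhibitors, 5 rose (23.8%, against 15.1%) and none fell, with a median of 0.07. CTSK, cathepsin K, a collagen-cutting lysosomal protease, rose by 0.69 (SE 0.07, adjusted p = 2.85e-06). DPP4, a membrane-bound dipeptidyl peptidase, rose by 1.57 (SE 0.20, adjusted p = 1.36e-05). In liver none of the 11, 20, 6, 10 and 22 tested genes of these lists passed in limma. At an unadjusted p under 0.05 in limma there were 9, of which 7 were lower under restriction, with no background share given.

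In liver, restriction lowered 3 matrix genes and raised none. Of 41 matrix probe sets, 3 passed (7.32%, against 0.919% of all 15677 probe sets), and all 3 fell (against 0.542% of all probe sets that fell and 0.376% that rose). The median effect was -0.15 for the matrix probe sets and 0.02 for all probe sets, and 30 of the 41 had a negative effect. COL6A3, the alpha 3 chain of type VI collagen, had values in low RFI pigs of 9.87, 9.87, 10.13, 10.18 and 9.84 ad libitum and 9.24, 9.35, 8.81, 8.98 and 8.98 under restriction. Arrays of high RFI pigs gave 9.95, 10.10, 9.57, 9.62 and 10.02 ad libitum and 8.77, 9.10, 9.03, 9.26 and 9.05 under restriction.

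Every restricted liver array was below every ad libitum array for COL6A3, the only matrix probe set in liver with this separation (2.44% of the 41, against 0.0255% of all probe sets in the lower direction). The effect was -0.86 (SE 0.10, adjusted p = 0.000166), a 1.81-fold fall, and -0.84 among numbers 1 and 2 and -0.88 among numbers 3 to 5. COL6A3 passed the threshold within each line, at -0.91 (adjusted p = 0.00955) in low and -0.81 (adjusted p = 0.0404) in high RFI pigs, but in high RFI pigs the adjusted p was 0.0995 with the 3' to 5' control ratios as covariates and 0.0762 with the replicate number as a block. It was the only matrix probe set past the threshold in either line (2.44%, against 0.134% and 0.0255% of all probe sets). COL6A2 had an effect of 0.07 (SE 0.15, adjusted p = 0.907).

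MMP7, which biliary epithelium makes in liver, had values in low RFI pigs of 9.97, 9.87, 9.96, 9.92 and 7.89 ad libitum and 8.80, 8.48, 8.44, 8.34 and 8.65 under restriction. High RFI pigs had values of 10.19, 9.20, 9.37, 10.09 and 10.18 ad libitum and 8.79, 9.06, 9.02, 8.78 and 8.95 under restriction. All restricted arrays were below 9 of the 10 ad libitum arrays, and low RFI ad libitum array 5 was the lowest of all 20. The effect was -0.93 (SE 0.21, adjusted p = 0.0373), and without that array -1.14 (SE 0.13, adjusted p = 0.000244). Within the sets of arrays it was -1.03 among numbers 1 and 2 and -0.87 among numbers 3 to 5, neither past the threshold. The mean of 5 epithelial and mesothelial markers in liver was 10.1 ± 0.258 (SD, n = 10) under restriction and 10.2 ± 0.232 ad libitum (exact permutation adjusted p = 0.493), and its part in the MMP7 effect was not tested.

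FBN1 fell in liver by 0.55 (SE 0.13, adjusted p = 0.0423), with restricted arrays from 8.40 to 9.12 (median 8.76) and ad libitum arrays from 8.82 to 9.80 (median 9.33), which overlapped. Its other probe set had an effect of -0.44 (SE 0.13, adjusted p = 0.124). The MMP7 call was lost on leaving out any of 14 of the 20 arrays, all except low RFI restricted 1 and 5, low RFI ad libitum 5, high RFI restricted 3 and high RFI ad libitum 2 and 3, at adjusted p up to 0.0768. The FBN1 call was lost for any of 16, all except low RFI restricted 1, high RFI restricted 2 and high RFI ad libitum 3 and 4, at adjusted p up to 0.0802.

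Just outside the threshold in liver were FBLN1, with an effect of -0.58 (SE 0.14, adjusted p = 0.0514), and SPARC, with -0.38 (SE 0.10, adjusted p = 0.0733). FBLN1 values ranged from 10.94 to 11.93 (median 11.50) under restriction and from 11.66 to 12.49 (median 12.08) ad libitum. In liver the mean of the fibroblast markers was 7.71 ± 0.290 (SD, n = 10) under restriction and 7.85 ± 0.241 ad libitum, and that of the stellate and mural cell markers 8.87 ± 0.251 and 9.03 ± 0.253 (exact permutation adjusted p = 0.561 and 0.458), and their part in the liver effects was not tested. FBLN1 and SPARC passed with the 3' to 5' control ratios as covariates, at -0.70 (adjusted p = 0.00253) and -0.42 (adjusted p = 0.0299), as did BGN, at -0.59 (adjusted p = 0.033). The proteoglycan genes had effects of -0.49 (SE 0.19) for DCN, -0.37 (SE 0.23) for BGN and -0.72 (SE 0.33) for LUM, none past the threshold without those covariates. LUM exceeded the percentile on 6 liver arrays and COL15A1, with an effect of -0.66 (SE 0.23, adjusted p = 0.196), on 7. For COL15A1 6 of these were ad libitum, so it passed the filter through the diet where it was higher.

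The fibrillar collagens did not pass in liver. COL1A2 had an effect of -0.15 (SE 0.10), COL3A1 -0.55 (SE 0.26), and the brightest probe sets of COL5A1 and COL5A2 -0.30 (SE 0.13) and 0.24 (SE 0.19). The basement membrane genes COL4A2, LAMB1 and LAMC1 had effects of -0.24, 0.09 and -0.16. FN1, a liver product, had an effect of 0.06 (SE 0.07) at its brightest probe set, with all 20 arrays between 14.49 and 15.04. The remodelling enzymes that rose in backfat had effects in liver of -0.03 (SE 0.12) for MMP2, 0.16 (SE 0.17) for MMP14, 0.16 and -0.01 for the TIMP2 probe sets, and -0.32 (SE 0.27) for LOX. TIMP1, TIMP3, LOXL1 and ADAMTS1 had effects of -0.35, -0.22, -0.09 and -0.13.

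**Figure D4:**
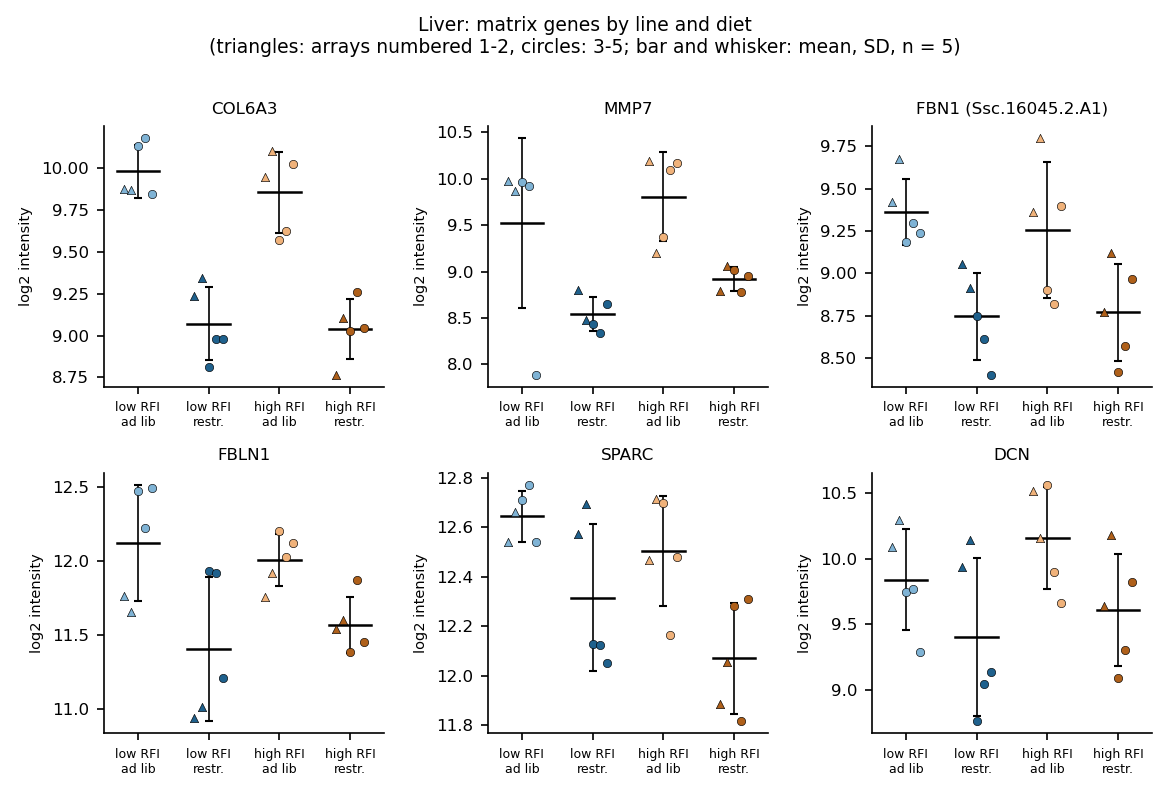
Log2 intensity in liver (vertical axes) of 6 matrix probe sets by line and diet, with 1 point per array, triangles for arrays numbered 1 and 2, circles for numbers 3 to 5, and the mean and SD of 5 arrays as bar and whiskers. COL6A3 shows no overlap between the diets, and MMP7 shows 1 ad libitum array at 7.89 below all others.

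The diet effects of the tissues were compared directly for the 37 matrix probe sets tested in both, by the difference of backfat minus liver over all 40 arrays. It passed for 10 of them (27%, against 10.9% of 14001 probe sets), 7 with a more positive effect in backfat (18.9%, against 4.53%) and 3 with a more negative one (8.11%, against 6.36%). The 7 were COL6A3 at 1.04 (SE 0.13, adjusted p = 1.03e-06), MMP2 at 0.99 (SE 0.25, adjusted p = 0.00807), FBN1 at 0.93 (SE 0.19, adjusted p = 0.000912), FBLN1 at 0.80, TIMP2 at 0.77, DCN at 0.65 and SPARC at 0.47. The 3 were the type V chains COL5A3 at -1.42 (SE 0.25, adjusted p = 0.000201), COL5A2 at -0.79 and COL5A1 at -0.55. The values of TIMP2, FBN1 and COL5A1 are those of Ssc.1082, Ssc.16045.2.A1 and Ssc.9002. Each of these genes had another probe set tested in both tissues, Ssc.11257, Ssc.16045.1.S1 and Ssc.4993, that did not pass.

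FBN1 was the 1 matrix probe set called in both tissues, and its direction was opposite, higher in backfat and lower in liver. Both FBN1 calls were close to the threshold and were lost on leaving out most single arrays. For COL6A3, FBLN1, SPARC and DCN the difference combined a negative liver effect with a backfat effect between 0.09 and 0.23 that did not pass. For MMP2, TIMP2 and COL5A3 it combined a backfat call with a liver effect between -0.03 and 0.09. COL5A3 and COL5A2 exceeded the percentile on 9 and 11 of 20 liver arrays, so their liver effects rest partly on values below it. All 10 differences kept their sign in each set of arrays. Those of COL6A3 and COL5A3 passed in both sets, with COL6A3 at 1.11 among numbers 1 and 2 and 0.99 among numbers 3 to 5. FBLN1 and TIMP2 passed among numbers 1 and 2 only, and FBN1, MMP2, SPARC and DCN among numbers 3 to 5 only. The differences of DCN, COL5A1 and COL5A2, with adjusted p between 0.04 and 0.0459, were each lost on leaving out any 1 of 14 of the 20 pairs of arrays with the same group and number.

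**Figure D5:**
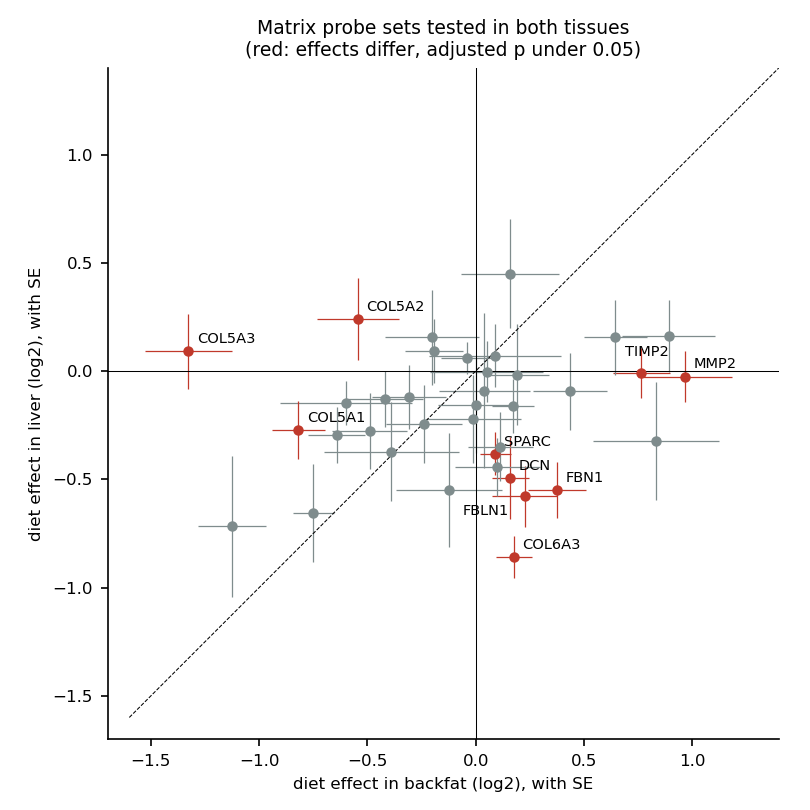
Diet effect in liver (vertical axis) against diet effect in backfat (horizontal axis) for the 37 matrix probe sets tested in both tissues, log2, restricted minus ad libitum, with standard errors as lines and equal effects on the dashed diagonal. The 10 named points in red differ between the tissues at an adjusted p under 0.05: COL6A3 is at 0.18 in backfat and -0.86 in liver, and COL5A3 at -1.33 and 0.09.

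No matrix probe set passed the threshold for a difference between the RFI lines. In limma 0 of 47 passed in backfat (background 0.0194%) and 0 of 41 in liver (background 0.0447%). At an unadjusted p under 0.05 in limma there were 9 in backfat and 2 in liver, with no background share given. The smallest p in backfat belonged to LAMB1, with a low minus high RFI difference of -0.39 (SE 0.13, adjusted p = 0.408), FBLN1 with 0.42 (SE 0.15, adjusted p = 0.434) and FN1 at Ssc.5580 with 0.60 (SE 0.22, adjusted p = 0.448). LAMB1 arrays ranged from 10.90 to 11.83 (median 11.44) in low and from 11.24 to 12.16 (median 11.89) in high RFI pigs, and the lines overlapped. In backfat 36 of the 47 line effects were positive, with a median of 0.09 against 0.00 for all probe sets, and the skeletal muscle marker mean was 9.44 ± 2.93 (SD, n = 10) in low and 7.26 ± 1.93 in high RFI pigs (exact permutation adjusted p = 0.258). With that mean as a covariate 0 of 47 passed too. In liver the smallest p belonged to LUM with -0.81 (SE 0.33, adjusted p = 0.662), COL6A2 with -0.32 (SE 0.15, adjusted p = 0.752) and SPARC with 0.19 (SE 0.10, adjusted p = 0.794). LUM exceeded the percentile on 6 liver arrays, 5 of them of high RFI pigs. It thus passed the filter through the line where it was higher.

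No matrix probe set passed in limma for a diet effect that differed between the lines, with 0 of 47 in backfat (background 0%) and none at an unadjusted p under 0.05, and 0 of 41 in liver (background 0%) with 1. In backfat the smallest p of the interaction, taken as low minus high RFI pigs' diet effect, belonged to TIMP1 at 0.55 (SE 0.30, adjusted p = 1), TIMP4 at -0.56 (SE 0.36, adjusted p = 1) and COL5A2 at -0.46 (SE 0.38, adjusted p = 1). In liver it belonged to FN1 at Ssc.5580 with -0.97 (SE 0.44, adjusted p = 0.999), LOX with 0.72 (SE 0.55, adjusted p = 0.999) and TIMP2 at Ssc.11257 with 0.37 (SE 0.35, adjusted p = 0.999). The standard errors show the size of difference this design leaves unresolved: of the probe sets that fell in both lines, the interaction was 0.01 (SE 0.19) for COL15A1, -0.14 (SE 0.31) for LUM and -0.17 (SE 0.40) for COL5A3.

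In backfat the matrix probe sets varied more between arrays of 1 group than all probe sets did, and in liver the spreads were closer. The pooled SD within groups in backfat had a median of 0.42 over the 47 matrix probe sets and 0.31 over all, and exceeded 0.5 for 18 of them (38.3%, against 14.8% of all). The steadiest was SPARC, at 0.15, and the most variable the dimmer COL1A2 probe set, at 1.07. The backfat spread includes low RFI restricted array 1, described next, and was not computed without it. In liver the medians were 0.39 and 0.34, with 11 of 41 above 0.5 (26.8%, against 22.8%), a share close to the background.

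A single array accounted for much of the upper end in backfat. Low RFI restricted array 1 held the highest of the 20 values for 22 of the 47 matrix probe sets (46.8%, against 11.9% of all probe sets), among them LOX, COL1A2, VCAN, FBN1 and COL6A3. This array also had the lowest adipocyte marker mean, 11.9, and its part in the matrix values was not tested beyond leaving it out: without it 16 matrix probe sets passed for diet, 6 higher and 10 lower, and the median effect was -0.10. In liver no array held more than 5 of the 41 highest values. Arrays numbered 3 to 5 exceeded numbers 1 and 2 within groups by 1.10 for COL6A2 and 0.83 for BGN in backfat and by 0.88 for BGN in liver, whereas the dimmer COL1A2 probe set was lower by 0.93 in backfat.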

How the data were processed

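RNA of 20 liver and 20 backfat samples was hybridised to porcine Affymetrix arrays. The deposited values are the authors' linear intensities per probe set; the submitters' processing notes name affy and MAS5, and their order, version and role are not given in the sources used here. Per the deposited values, every array had a trimmed mean intensity near 500, so values were already on a shared scale. Here the deposited intensities were put on the log2 scale with no offset and no further normalization. The 124 control probe sets of 24123 were left out. The platform annotation gave 1 gene symbol for 10069 of the others, several for 198 and none for 13732, and all 85 matrix probe sets matched a gene of the RefSeq table of Sscrofa11.1 by gene ID. No level was compared between probe sets.

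Probe sets entered the tests of a tissue when 5 or more of its 20 arrays had a value above that array's 40th percentile. Each tissue was fitted with limma 3.58.1 in R 4.3.3 (lmFit, eBayes with an intensity trend) with 1 mean per group of 5 arrays. Contrasts gave the diet effect, the line effect and their interaction; a fit over all 40 arrays gave the difference between tissues and between their diet effects. The threshold was an adjusted p (Benjamini-Hochberg) of 0.05. Single values per array were compared by two-sided exact permutation tests. Descriptive work used Python 3.11.15, numpy 2.4.6, pandas 2.3.3 and matplotlib 3.10.9. The fit was tested on simulated arrays with known diet changes. Of log2 changes of 0.5, it recovered 22 of 66 in backfat and 24 of 66 in liver. Of changes of 1 it recovered 56 of 67 in each tissue, and of changes of 2, 62 of 67 and 64 of 67. False calls were 9 of 149 in backfat and 7 of 151 in liver. Most changes of 0.5 were thus missed. The number of arrays, 5 per group, limits the precision.

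The genes named are all those past the threshold (with no call, the 3 with the smallest p), a fixed set of matrix genes in both tissues, the 5 largest tissue differences each way (values only for probe sets tested in both tissues), and the 2 smallest p-values of each list of related genes with a call. A gene is shown by its brightest probe set, and its others where they differ in call or sign. The members and the gene lists were chosen with earlier results of these data known. COL1A2 at its dimmer probe set, VCAN without 1 array, and the arrays that stand apart were singled out after their values were seen. Alternatives were quantile normalization, other filters, an offset, no intensity trend, a replicate block, each set of array numbers, covariates and leaving out arrays.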

Additional observations from a re-analysis of the deposited data

Results flagged for a closer look

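Values are log2 intensities of single arrays that stood apart from the other 4 of their group by Dixon's criterion, which chance meets in about 1 group in 20. It was met in 10 of 144 groups tested in backfat and 5 of 124 in liver, and no explanation was tested.

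In backfat, low RFI restricted array 1 stood above its group for 4 probe sets. LOX was 14.27 there and 10.89 to 11.80 on the others, COL1A2 13.49 and 10.68 to 11.41, COL5A1 at Ssc.4993 11.81 and 10.99 to 11.09, and DCN 14.60 and 14.15 to 14.26. Array 2 of that group was below the others for COL6A2, at 9.54 against 10.86 to 11.22, and for TIMP2 at Ssc.11257, at 11.76 against 12.41 to 12.61. Among high RFI restricted arrays, number 5 was above the others for COL1A2, at 11.91 against 10.73 to 10.97, and number 1 for TIMP4, at 7.19 against 6.40 to 6.59. High RFI ad libitum array 2 was low for ADAMTS1 at Ssc.16451, at 10.42 against 10.87 to 11.04. Low RFI ad libitum array 1 was high for FN1 at Ssc.5580, at 9.22 against 8.12 to 8.30.

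In liver, low RFI ad libitum array 5 was below its group for LOXL1, at 3.67 against 6.45 to 7.52, and for MMP7, at 7.89 against 9.87 to 9.97. Low RFI restricted array 3 was high for COL5A1 at Ssc.4993, at 8.74 against 8.06 to 8.24. High RFI ad libitum array 5 was high for FN1 at Ssc.5580, at 9.04 against 8.29 to 8.44, and array 4 was low for MMP2, at 8.01 against 8.18 to 8.25.

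The diet effect differed between backfat and liver, tested as a difference in limma, for 10 probe sets. Backfat minus liver was 1.04 for COL6A3, 0.99 for MMP2, 0.93 for FBN1 at Ssc.16045.2.A1, 0.80 for FBLN1, 0.77 for TIMP2 at Ssc.1082, 0.65 for DCN and 0.47 for SPARC. It was -1.42 for COL5A3, -0.79 for COL5A2 and -0.55 for COL5A1 at Ssc.9002.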

How the results depend on the processing

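No result named here changed sign past the threshold under any alternative run. The 15 matrix probe sets called for diet in backfat became 4 with numbers 1 and 2 only (8 arrays) and 11 to 16 on leaving out 1 array. The 3 called in liver became 1 with no filter, 1 with no intensity trend, 1 with numbers 3 to 5 only, 0 with numbers 1 and 2 only (limma, 8 of 41 at an unadjusted p under 0.05), 6 with the 3' to 5' ratios as covariates and 1 to 3 on leaving out 1 array, with 1 without any of low RFI ad libitum 3 or 4, high RFI restricted 1, 4 or 5 and high RFI ad libitum 1 or 5. The 10 tissue differences in the diet effect became 4 with numbers 1 and 2 only, 6 with numbers 3 to 5 only and 7 to 10 on leaving out arrays. The differences between tissues, 49 of the 51 probe sets tested in at least 1 tissue and 36 of the 37 tested in both, stayed at 49 to 50 of the 51 on leaving out arrays, and line and interaction calls stayed at 0 in every limma fit run. Leaving out the backfat arrays that stand apart was chosen after seeing the data. Of 347 values of called genes under alternatives other than leaving out 1 array, 295 stayed past the threshold and 52 did not, and of 508 of uncalled genes 15 passed.

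The labels number the arrays 1 to 5 in each group without saying that a number marks a shared pig or day. Deviations of same-numbered arrays correlated at 0.02 to 0.39 in backfat (23 of 30 pairs of such arrays above 0.1), at -0.004 to 0.30 in liver (26 of 30) and at 0.07 to 0.32 between the tissues (19 of 20). Most pairs thus deviated together, and 12 of 20 arrays in backfat and 13 of 20 in liver correlated best with their own number. With same-numbered arrays of a group as a block across the tissues, the consensus correlation was 0.18. The labels give no pairing and not every pair exceeded 0.1, so the main fits did not use the numbers as pairs. These values do not show that same-numbered arrays were unrelated. With the replicate block 16 matrix probe sets passed for diet in backfat, with LAMB2 added, 5 in liver, with FBLN1 (adjusted p = 0.0155) and SPARC (adjusted p = 0.0427) added, and 12 for the tissue difference, with LOX and MMP14 added.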
